A study of Mus musculus with 12 samples.

Results

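The C-type lectin receptors of myeloid cells are described here by 9 genes, Clec7a, Clec4e, Clec4d, Clec4n, Clec5a, Clec4a2, Clec4a3, Clec4a1 and Clec12a, chosen by gene symbol out of 55401 genes counted in sorted mouse microglia. All 9 passed the filter on low counts. RNA of CD45int CD11b+ cells was sequenced in 12 libraries, 3 in each of 4 groups: both genotypes (WT, miKO) after sham surgery (WT-Sham, miKO-Sham) and the same genotypes after stroke (WT-tFCI, miKO-tFCI). WT mice were HDAC3 loxp/loxp without CreER, and miKO mice were HDAC3 loxp/loxp with CreER in 1 of the 2 alleles of CX3CR1, so that loss of HDAC3, a histone deacetylase, cannot be told apart from the presence of CreER and the loss of 1 CX3CR1 allele. All mice were male. Tamoxifen, which activates CreER, was given for 5 days at an age of 6 to 8 weeks, and surgery followed at least 1 month later; the methods do not say whether WT mice received it too. In transient focal cerebral ischemia (tFCI) the middle cerebral artery was occluded, and sham surgery left it open. Cells were isolated on day 3, and each library pooled cells from 3 to 4 hemispheres. CreER under CX3CR1 acts in all cells that express this receptor at the time of tamoxifen, border-associated macrophages among them, and the month before surgery was meant to let new monocytes with intact HDAC3 take the place of the circulating ones.

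C-type lectin receptors are membrane proteins with a carbohydrate-binding fold, by which myeloid cells sense fungal and bacterial sugars and glycolipids as well as material from dying cells. The activating receptors pass their signal through tyrosine motifs to the kinase Syk and the adaptor CARD9. They use either a motif of their own (Clec7a) or a partner chain, FcRγ (Fcer1g) for Clec4e, Clec4d and Clec4n and DAP12 (Tyrobp) for Clec5a. Clec5a also pairs with a further chain, DAP10 (Hcst). Clec4a2 and Clec12a carry an inhibitory motif instead, which recruits the phosphatases SHP-1 (Ptpn6) and SHP-2 (Ptpn11). In microglia, Clec7a is best known as a surface marker of cells found around injured or degenerating tissue.

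All 9 genes lie on chromosome 6 of GRCm38 (GENCODE M21). Clec4a1 (122921848 to 122934619), Clec4a3 (122952515 to 122969875), Clec4a2 (123106428 to 123143999), Clec4n (123229843 to 123247021), Clec4d (123262111 to 123275265) and Clec4e (123281789 to 123289870) form 1 cluster, and Clec12a (129342691 to 129365303) and Clec7a (129461591 to 129472779) a second one. Clec5a lies apart (40574894 to 40585821). Clec4e, Clec7a and Clec5a are on the minus strand. The annotation lists Clec7a as a polymorphic pseudogene, a class for genes that are intact in some mouse strains. No exon of a member overlaps another gene. Of the 75-base stretches of the Clec4a2 transcripts 3.24% occur also in Clec4a4 or Clec4b1, and none of those of the other 8 members occur in another gene.

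The 250 bases before the transcript start of 4 members are shown because these genes moved in opposite directions in miKO-Sham, Clec7a, Clec4e and Clec4d up and Clec4a2 down. The sequences are from RefSeq (GRCm38.p6), 5′ to 3′ on the strand of the gene, and capitals mark the letters GAGGAA or, on the other strand, TTCCTC, the core to which PU.1, the lineage factor of myeloid cells, binds. The positions are chr6:129472780-129473029 for Clec7a (minus strand), chr6:123289872-123290121 for Clec4e (minus strand), chr6:123261857-123262106 for Clec4d (plus strand) and chr6:123122440-123122689 for Clec4a2 (plus strand). The RefSeq start of Clec4a2 lies inside the longer gene of GENCODE, and Clec4n was not looked at.
Clec7a: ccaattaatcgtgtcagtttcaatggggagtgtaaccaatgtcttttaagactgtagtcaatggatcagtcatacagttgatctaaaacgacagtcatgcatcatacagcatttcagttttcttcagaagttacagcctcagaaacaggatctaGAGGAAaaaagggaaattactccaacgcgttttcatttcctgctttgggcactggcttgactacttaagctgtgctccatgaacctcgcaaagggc
Clec4e: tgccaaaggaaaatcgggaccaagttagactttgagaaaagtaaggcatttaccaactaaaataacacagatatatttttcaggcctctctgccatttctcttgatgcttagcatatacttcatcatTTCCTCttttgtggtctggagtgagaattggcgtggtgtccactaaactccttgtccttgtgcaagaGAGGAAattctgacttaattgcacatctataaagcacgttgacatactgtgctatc
Clec4d: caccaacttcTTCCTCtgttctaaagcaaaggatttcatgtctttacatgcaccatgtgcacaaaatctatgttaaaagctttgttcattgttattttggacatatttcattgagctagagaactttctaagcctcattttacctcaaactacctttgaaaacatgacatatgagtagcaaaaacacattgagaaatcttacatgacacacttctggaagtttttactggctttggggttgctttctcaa
Clec4a2: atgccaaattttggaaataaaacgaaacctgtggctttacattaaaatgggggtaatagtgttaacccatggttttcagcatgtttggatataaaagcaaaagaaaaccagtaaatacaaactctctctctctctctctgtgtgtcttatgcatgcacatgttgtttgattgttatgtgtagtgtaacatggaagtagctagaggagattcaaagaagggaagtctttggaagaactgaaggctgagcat
GAGGAA was found on either strand in 6 of the 8 members with a promoter sequence and in 23.3% of 32851 promoter windows of the same length. The windows searched for Clec4a2 and Clec4a3 do not hold these letters. Those of Clec5a and Clec12a, for which no difference in miKO-Sham was called, hold 2 matches each. For Clec7a and Clec4a3, 2 starts are listed, and only the first was searched. Whether the letters bear on the direction of change was not tested. TTNCNNAA, the half-sites of C/EBP factors, was found in 5 of 8 members (36.8% of all windows), TGANTCA (AP-1) in 1 (6.75%), an NF-kB motif in 1 (45.8%) and an interferon response element in 0 (2.98%). These motifs were searched on both strands and may overlap. A match describes the letters and shows no binding.

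The libraries held 7697860 to 9452220 counts on genes (median 8226430), and 2224 to 5154 of these lay on the 9 members. Levels are given as CPM, counts scaled by TMM to a common library size, and the order of replicates is 1, 2, 3 throughout. Hdac3 was lower in each miKO library than in each WT library of the same surgery, from 20.9 to 25.8 CPM in miKO-Sham against 35 to 46.4 in WT-Sham and from 27.1 to 36.0 CPM in miKO-tFCI against 43.9 to 54.0 in WT-tFCI (log2 fold change −0.81 and −0.71, edgeR adjusted p = 0.00281 and 0.0127). All 12 microglial markers were present in each group, with a summed level of 30589 to 40804 CPM in WT-Sham, 28543 to 34476 in miKO-Sham, 21512 to 23905 in WT-tFCI and 10809 to 21011 in miKO-tFCI. Of the 12, 1 was called higher and 5 lower in miKO-Sham vs. WT-Sham (Tmem119, for example, by −1.54 on the log2 scale), 6 lower in miKO-tFCI vs. WT-tFCI, 9 lower after tFCI in WT and 12 lower after tFCI in miKO. Cx3cr1, of which 1 allele carries CreER in miKO mice, was among those lower between genotypes (−1.68 in sham, −1.84 in tFCI). Replicate 1 of each group was in batch 1 and the others in batch 2, and the labels do not say what the batches are. Replicate 3 of miKO-Sham stood apart from its group, with 397 CPM of the 10 border-associated macrophage markers against 120 and 116, and replicate 1 of miKO-tFCI had the lowest microglial and the highest monocyte marker sum (1136 CPM against 571 and 619) of its group. Replicates 1 and 2 of miKO-Sham had the lowest chi-square of the 12 pairs of libraries within groups, 2.82 per degree of freedom, and the deposited names of these libraries share a stem. Whether they come from 1 pool of cells was not settled, and if they do, the p-values of comparisons with miKO-Sham rest on fewer samples than counted. They were kept as separate libraries. This pair crosses the batches. Replicates 2 and 3, both of batch 2, were the closest pair in WT-Sham, WT-tFCI and miKO-tFCI (5.10, 3.65 and 12.9 per degree of freedom). In miKO-Sham they were the furthest apart (40.8). Whether the batch labels hold for miKO-Sham was not tested. Without miKO-Sham replicate 1 the log2 fold changes in miKO-Sham vs. WT-Sham were 4.45 for Clec7a, 2.12 for Clec4n and −3.04 for Clec4a2. In that fit 7 members and 2346 of 17260 genes were called. Without miKO-Sham replicate 2 these fold changes were 4.49, 2.15 and −3.16, and 6 members and 2120 of 17249 genes were called. In sorted bulk RNA, fewer cells of a type and less RNA per cell cannot be told apart.

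Clec7a (Dectin-1), the receptor for fungal β-glucans, had the widest difference in CPM between the sham groups. It was at 20.6, 16.2 and 15.9 CPM in WT-Sham, at 546, 540 and 258 CPM in miKO-Sham, at 90.8, 93.9 and 78.3 CPM in WT-tFCI and at 158, 233 and 348 CPM in miKO-tFCI. Each miKO-Sham library lay far above each WT-Sham and WT-tFCI library, and miKO-Sham overlapped with miKO-tFCI. Clec7a was 25.5-fold higher in miKO-Sham than in WT-Sham (log2 fold change 4.67 ± 0.33 SE, adjusted p = 3.93e-07, from the quasi-likelihood test of edgeR, adjusted by Benjamini-Hochberg over 16451 genes as are all adjusted p below). It rose 5.0-fold after tFCI in WT (log2 fold change 2.32 ± 0.31, edgeR adjusted p = 3.99e-05) and was 2.81-fold higher in miKO-tFCI than in WT-tFCI (1.49 ± 0.29, edgeR adjusted p = 0.00483). In miKO mice it was lower after tFCI than after sham surgery (−0.86 ± 0.28, edgeR adjusted p = 0.0236), a call that was lost without replicate 1 or 2 of either miKO group, with adjusted p from 0.0640 to 0.114 by edgeR. The change after tFCI thus went up in WT and down in miKO, and the interaction of genotype and surgery was −3.18 ± 0.41 on the log2 scale (edgeR adjusted p = 6.75e-04), with −3.5 when miKO-Sham replicate 3 was left out.

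**Figure D1:**
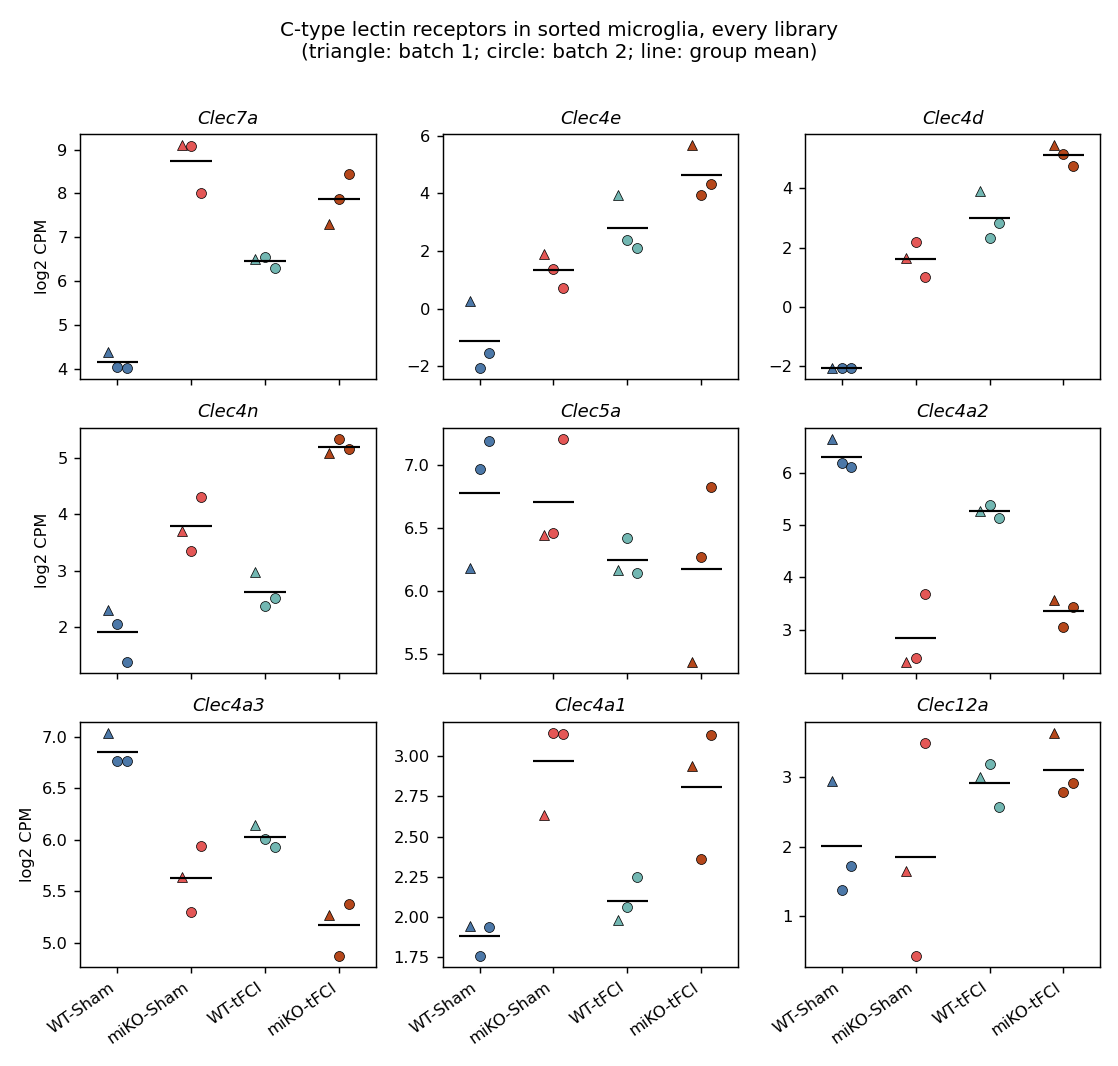
log2 CPM (y axis, its range differs between panels, prior count of 2) of the 9 C-type lectin receptors in each of the 12 libraries by group (x axis). Clec7a was highest in miKO-Sham, Clec4e, Clec4d and Clec4n were highest in miKO-tFCI, and Clec4a2 and Clec4a3 were highest in WT-Sham; lines are means of 3 libraries.

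Clec4e (Mincle), which binds mycobacterial glycolipids and the nuclear protein SAP130 of dead cells, and Clec4d (MCL), its partner in the membrane, had the steepest rise after tFCI. Clec4e was at 0.96, 0 and 0.10 CPM in WT-Sham, at 3.47, 2.36 and 1.41 CPM in miKO-Sham, at 15.1, 4.96 and 4.02 CPM in WT-tFCI and at 50.4, 15.2 and 19.7 CPM in miKO-tFCI. Clec4d had no count in any WT-Sham library and was at 2.92, 4.30 and 1.79 CPM in miKO-Sham, at 14.7, 4.73 and 6.82 CPM in WT-tFCI and at 43.2, 35.2 and 26.3 CPM in miKO-tFCI. For both genes, the levels rose from WT-Sham over miKO-Sham and WT-tFCI to miKO-tFCI without overlap between neighbouring groups. Replicate 1, the library of batch 1, was the highest of its group for Clec4e in all 4 groups.

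The 9 counts of Clec4e in WT-Sham allow only a wide ratio, 24.0 (95% counting interval 12.4 to 53.3) for WT-tFCI over WT-Sham and 7.15 (3.5 to 16.5) for miKO-Sham over WT-Sham. These ratios rest on 1 library, since 8 of the 9 counts were in WT-Sham replicate 1. Without it, which was tried after seeing the data, 1 count was left and the ratios were 149.5 (26.5 to 5935) and 44.5 (7.66 to 1792). Against a floor of 3 counts per library, Clec4d was at least 26.2-fold higher in WT-tFCI and at least 8.97-fold higher in miKO-Sham than in WT-Sham. All 4 differences passed the test, with edgeR adjusted p from 3.48e-06 to 0.00119. In miKO mice, tFCI raised Clec4e 11.1-fold (log2 fold change 3.47 ± 0.35, edgeR adjusted p = 3.90e-06) and Clec4d 11.4-fold (3.51 ± 0.36, edgeR adjusted p = 1.09e-05). After tFCI, miKO exceeded WT 3.65-fold in Clec4e (1.87 ± 0.31, edgeR adjusted p = 0.00156) and 4.21-fold in Clec4d (2.07 ± 0.32, edgeR adjusted p = 0.00176). Without the batch term the genotype differences of Clec4e did not pass, with an edgeR adjusted p of 0.0790 in sham and 0.142 in tFCI.

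Clec4n (Dectin-2), a receptor for fungal mannans, differed most between genotypes after tFCI. It was at 4.69, 3.92 and 2.36 CPM in WT-Sham, at 12.8, 9.99 and 19.5 CPM in miKO-Sham, at 7.66, 4.96 and 5.48 CPM in WT-tFCI and at 33.9, 39.8 and 35.3 CPM in miKO-tFCI. The WT groups lay close together and did not overlap, and each miKO group was above both of them. The difference between genotypes was 6.06-fold after tFCI (log2 fold change 2.60 ± 0.28, edgeR adjusted p = 5.08e-05) and 3.90-fold after sham surgery (1.96 ± 0.29, edgeR adjusted p = 2.54e-04). In miKO, tFCI raised Clec4n 2.57-fold (1.36 ± 0.26, edgeR adjusted p = 7.69e-04). In WT the difference was 0.73 ± 0.31 and did not pass (edgeR adjusted p = 0.0726), and it was not shown to differ between genotypes (interaction 0.63 ± 0.40, edgeR adjusted p = 0.458). The difference in WT was called when miKO-Sham replicate 3 was left out of the fit (0.73, edgeR adjusted p = 0.0357).

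Clec5a (MDL-1), the receptor that pairs with DAP12 and DAP10, showed no called difference with all libraries. It was at 72.5, 124 and 145 CPM in WT-Sham, 87.0, 87.7 and 147 CPM in miKO-Sham, 71.5, 85.4 and 70.4 CPM in WT-tFCI, and at 43.2, 76.9 and 113 CPM in miKO-tFCI. The groups overlapped in each comparison. The 95% interval of the genotype difference on the log2 scale was −0.54 to 0.44 in sham and −0.54 to 0.44 in tFCI, which leaves out the changes seen in the other activating receptors. After tFCI it was −0.52 ± 0.23 in both WT and miKO (edgeR adjusted p = 0.0842 and 0.0811). The fall in WT was called in batch 2 only (−0.78, edgeR adjusted p = 0.0240) and without WT-tFCI replicate 1 (−0.76, 0.0329), and that in miKO without miKO-Sham replicate 2 (−0.74, 0.0168) or miKO-tFCI replicate 3 (−0.81, 0.0121).

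Of the receptors with an inhibitory motif, Clec4a2 (DCIR) fell and Clec12a (MICL), which binds uric acid crystals, did not pass in any comparison with all libraries. Clec4a2 was at 98.9, 72 and 68.4 CPM in WT-Sham, 5.0, 5.27 and 12.6 CPM in miKO-Sham, 38.2, 41.2 and 35.1 CPM in WT-tFCI, and at 11.7, 8.04 and 10.6 CPM in miKO-tFCI. WT-Sham was highest, WT-tFCI in between and both miKO groups lowest, with miKO groups that overlapped each other. It fell 10.3-fold from WT-Sham to miKO-Sham (log2 fold change −3.36 ± 0.29, edgeR adjusted p = 1.64e-06), 3.77-fold from WT-tFCI to miKO-tFCI (−1.91 ± 0.27, edgeR adjusted p = 5.34e-04) and 2.08-fold after tFCI in WT (−1.06 ± 0.25, edgeR adjusted p = 0.00413). In miKO the difference after tFCI was 0.39 ± 0.30 (edgeR adjusted p = 0.310) with all libraries and 1.00 ± 0.23 (edgeR adjusted p = 0.00341) without miKO-Sham replicate 3, and the interaction was 1.45 ± 0.39 (edgeR adjusted p = 0.0539) with it and 2.05 ± 0.27 (edgeR adjusted p = 6.44e-04) without it. Clec12a was at 7.45, 2.35 and 3.08 CPM in WT-Sham, 2.92, 1.11 and 11 CPM in miKO-Sham, 7.78, 8.89 and 5.73 CPM in WT-tFCI, and at 12.2, 6.66 and 7.29 CPM in miKO-tFCI. Its spread was widest in miKO-Sham, where replicate 3 was far above the other two, and its SE was 0.57 to 0.61 in the 4 pairwise comparisons. Without that library the difference after tFCI was called in WT (0.95, edgeR adjusted p = 0.0398) and in miKO (2.29, edgeR adjusted p = 0.00107).

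Clec4a3 and Clec4a1, relatives of Clec4a2 in the same cluster, moved in opposite directions. Clec4a3 was at 131, 108 and 108 CPM in WT-Sham, 49.7, 39.1 and 61.0 CPM in miKO-Sham, 70.6, 63.9 and 60.6 CPM in WT-tFCI, and at 38.3, 29.0 and 41.2 CPM in miKO-tFCI. It was lower in miKO than in WT by 2.31-fold after sham surgery (log2 fold change −1.21 ± 0.17, edgeR adjusted p = 1.28e-04) and by 1.80-fold after tFCI (−0.85 ± 0.17, edgeR adjusted p = 0.00583), and it fell 1.78-fold after tFCI in WT (−0.83 ± 0.16, edgeR adjusted p = 0.00116). Clec4a1 was at 3.61, 3.14 and 3.59 CPM in WT-Sham, 5.97, 8.6 and 8.58 CPM in miKO-Sham, 3.71, 3.92 and 4.51 CPM in WT-tFCI, and at 7.43, 4.90 and 8.53 CPM in miKO-tFCI. Its rise in miKO-Sham was 2.22-fold (1.15 ± 0.31, edgeR adjusted p = 0.0172) and was lost without WT-Sham replicate 2 or 3 or miKO-Sham replicate 2 (edgeR adjusted p = 0.0507 to 0.0807). After tFCI the miKO libraries were all above the WT ones, with a difference of 0.79 ± 0.31 that did not pass (edgeR adjusted p = 0.120).

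**Figure D2:**
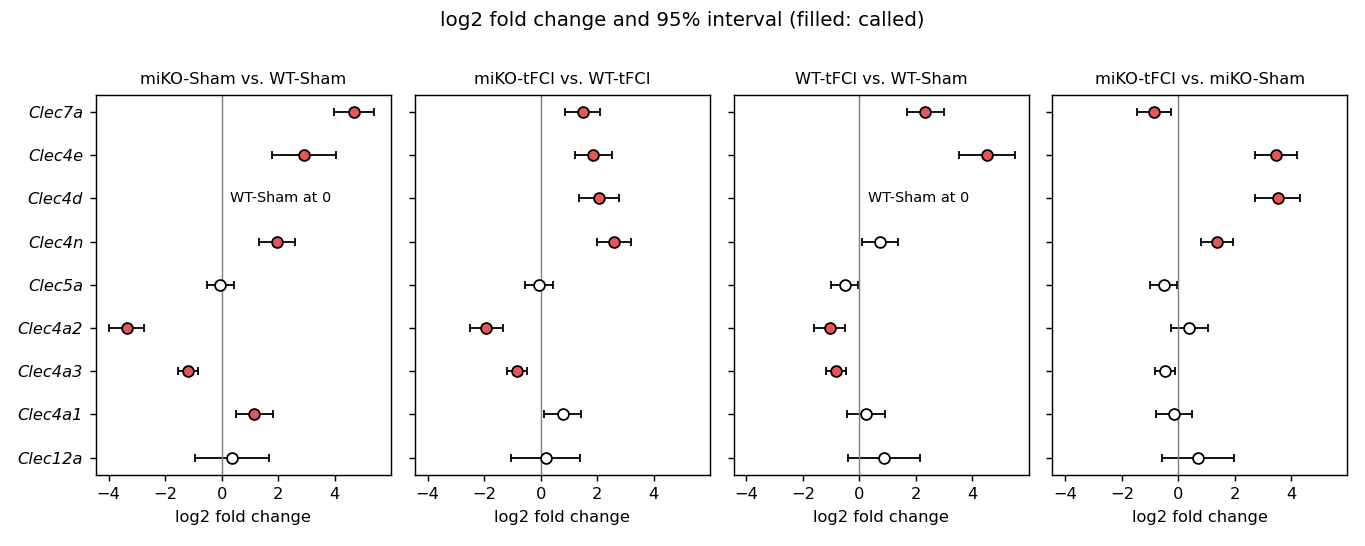
log2 fold change (x axis) of the 9 members (y axis) with 95% interval in the 4 comparisons between groups, filled where called. Clec4d has no point against WT-Sham, where it had no count, and Clec4a2 and Clec4a3 lie left of 0 in both comparisons between genotypes.

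A gene counted as called where its edgeR adjusted p was below 0.05 and its log2 fold change beyond 0.58 in either direction. In miKO-Sham vs. WT-Sham 7 of 9 members were called, 5 higher and 2 lower, where 15.4% of all genes tested were called (8.58% higher, 6.8% lower), and the median log2 fold change was 1.15 over the members and 0.04 over all genes. In miKO-tFCI vs. WT-tFCI it was 6 of 9, 4 higher and 2 lower (8.79% of all genes, 4.08% higher and 4.71% lower, medians 0.79 and 0.04). In WT-tFCI vs. WT-Sham 5 of 9 were called, 3 higher and 2 lower (32.6% of all genes, 20.9% higher and 11.7% lower, medians 0.73 and 0.02). For tFCI in miKO it was 4 of 9, 3 higher and 1 lower (35.8% of all genes, 21.9% higher and 13.9% lower, medians 0.39 and 0.03). These shares were nearer to those of all genes than were the shares between genotypes. The members were chosen with earlier results of these data known, so that no share is a test of the members as a set. In the interaction 2 of 9 were called, both negative (3.82% of all genes, 1.25% positive and 2.57% negative). The groups did not overlap in CPM for 7 of 9 members in miKO-Sham vs. WT-Sham (33.2% of all genes), 7 in miKO-tFCI vs. WT-tFCI (22.9%), 7 after tFCI in WT (49.8%) and 3 after tFCI in miKO (48.2%). These comparisons share groups, so that their values are not independent of each other.

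Per kilobase of exon, which allows levels to be compared between genes, Clec4a3 led in WT-Sham with 87.3 ± 9.9 CPM per kb (mean ± SD, n = 3), followed by Clec5a with 29.7 ± 9.8 and Clec4a2 with 27.3 ± 5.7, which did not differ beyond their spread, and by Clec7a with 6.66 ± 0.98. In miKO-Sham, Clec7a led with 170 ± 62 CPM per kb, ahead of Clec4a3 with 37.6 ± 8.2 and Clec5a with 27.9 ± 8.9, whose ranges overlapped, while Clec4a2 stood at 2.60 ± 1.46. In WT-tFCI the order by CPM per kb was Clec4a3 with 49.0 ± 3.9, Clec7a with 33.2 ± 3.1, Clec5a with 19.7 ± 2.2 and Clec4a2 with 13 ± 1.0, none of which overlapped. In miKO-tFCI, Clec7a led again with 93.4 ± 36.2 CPM per kb, and Clec4a3 with 27.3 ± 4.8, Clec4n with 25.6 ± 2.2, Clec4d with 21.8 ± 5.3 and Clec5a with 20.2 ± 9.1 did not differ beyond their spread. Clec4e, Clec4a1 and Clec12a were below 6 CPM per kb on average in each group.

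**Figure D3:**
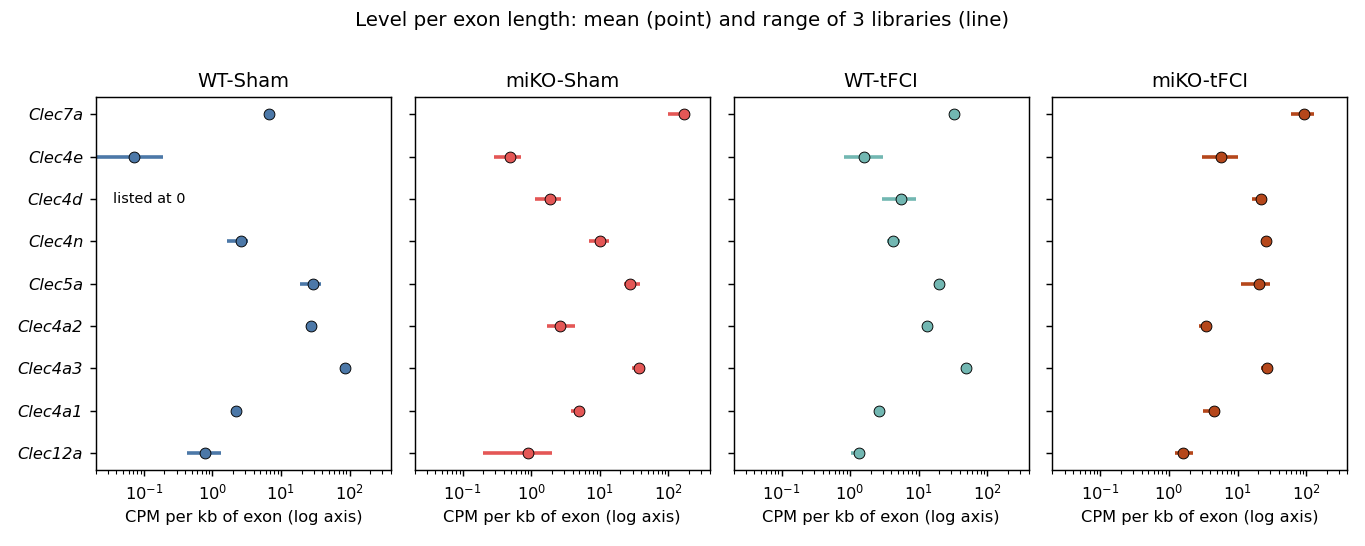
CPM per kb of exon (log x axis) of the 9 members (y axis) in the 4 groups, with the mean as a point and the range of 3 libraries as a line, cut at the axis for Clec4e in WT-Sham, where 1 library had no count. Clec4a3 led in both WT groups and Clec7a in both miKO groups.

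The partner chains rose in miKO-Sham, as did Clec4e, Clec4d and Clec4n, while Clec5a, the receptor that uses Tyrobp and Hcst, was not called. Fcer1g, the chain of Clec4e, Clec4d and Clec4n, rose from 1060 ± 297 CPM in WT-Sham to 2588 ± 872 in miKO-Sham (log2 fold change 1.30, edgeR adjusted p = 7.50e-04). Hcst rose from 15.6 ± 6.3 to 40.0 ± 11.3 CPM (1.38, edgeR adjusted p = 5.31e-04) and Tyrobp, whose groups overlapped, from 1827 ± 808 to 2880 ± 774 CPM (0.71, edgeR adjusted p = 0.0365). All 3 rose after tFCI in WT as well, by 0.66, 1.11 and 0.64 on the log2 scale (edgeR adjusted p = 0.0274, 0.00139 and 0.0320). The groups overlapped here too for Tyrobp and not for Fcer1g and Hcst. Between miKO-tFCI and WT-tFCI none of them was called. Ptpn6, the phosphatase of the inhibitory receptors, rose from 519 ± 109 to 936 ± 173 CPM in miKO-Sham (0.87, edgeR adjusted p = 8.64e-04). Syk, the kinase shared by the activating receptors, fell by 0.58 after tFCI in WT (edgeR adjusted p = 0.00329) and by 0.69 in miKO (edgeR adjusted p = 9.00e-04). Card9, the adaptor after Syk, was lower in miKO-tFCI than in WT-tFCI, at 11.9 ± 1.5 against 24.1 ± 3.6 CPM (−1.01, edgeR adjusted p = 0.00941).

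**Figure D4:**
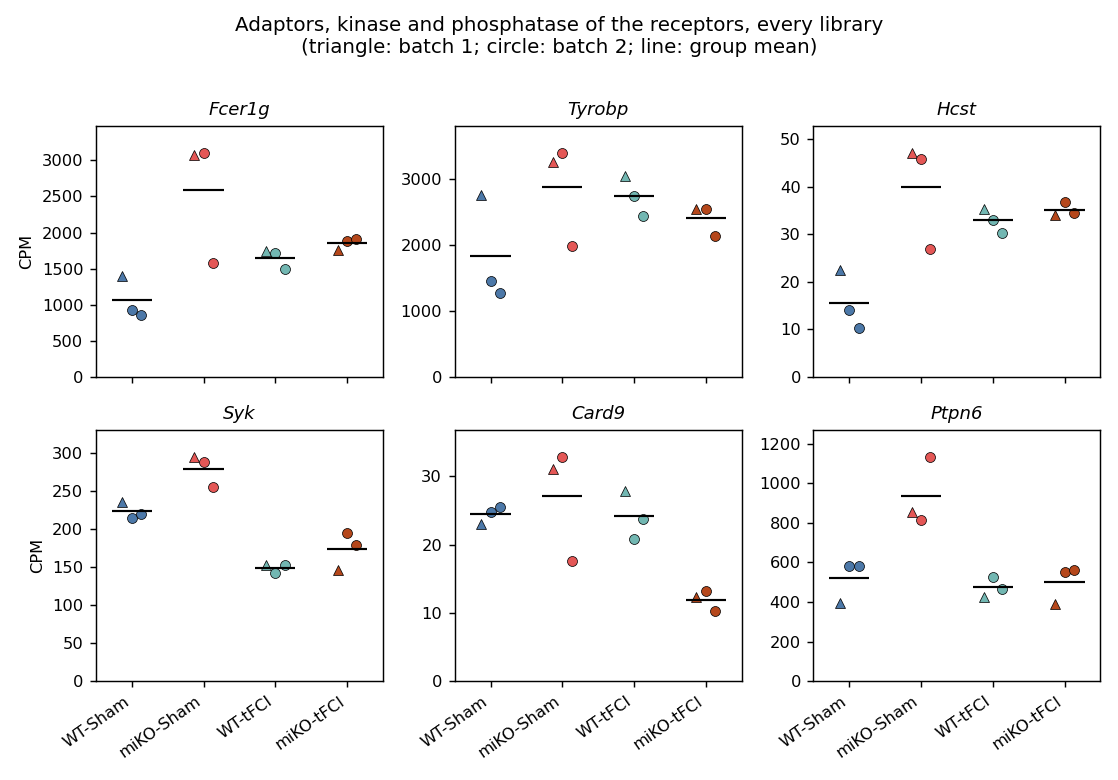
CPM (y axis from 0) of the receptors' partner chains Fcer1g, Tyrobp and Hcst, of Syk and Card9 and of the phosphatase Ptpn6 in each of the 12 libraries by group (x axis), with the mean of 3 libraries as a line. Card9 was lowest in miKO-tFCI, and miKO-Sham replicate 3 had the lowest Fcer1g, Tyrobp and Hcst of its group.

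Of 26 genes of the signalling route, 7 were higher and 0 lower in miKO-Sham vs. WT-Sham (Fgr, Lyn and Nfatc2 beside those named), 1 higher (Fgr) and 2 lower (Card9, Vav2) in miKO-tFCI vs. WT-tFCI, 6 higher and 6 lower after tFCI in WT, and 3 higher (Fgr, Ptpn11, Vav3) and 13 lower after tFCI in miKO. Over all genes, 15.4%, 8.79%, 32.6% and 35.8% were called in these 4 comparisons, against which the counts of this list and of those that follow are to be read. The median log2 fold changes of the signalling genes were 0.14, 0.03, −0.25 and −0.57. Of 15 tested products of Syk and CARD9 signalling, 13 were higher and 1, Il6, was lower after tFCI in WT, 3 higher and 3 lower after tFCI in miKO, 7 higher in miKO-Sham and, of the same 15, 1 higher (Cxcl1) and 7 lower in miKO-tFCI vs. WT-tFCI. Il1b, for example, was higher by 3.03 in miKO-Sham (edgeR adjusted p = 1.44e-06), and Tnf by 2.21 (edgeR adjusted p = 1.56e-05), whereas Tnf was lower by 0.97 in miKO-tFCI vs. WT-tFCI (edgeR adjusted p = 0.016), and Ccl4 by 1.43 (edgeR adjusted p = 0.0032). Their medians were 2.38, −0.28, 0.98 and −0.91 in the same order. The interaction was called negative for 9 of the 15 and positive for 0. These products have other inducers too.

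Of 5 tested genes for reported ligands, Anxa5, Vim and Lgals9, whose products are reported for Clec7a, rose in miKO-Sham (by 1.48, 1.05 and 1.21). Anxa1 did not pass there (1.43, edgeR adjusted p = 0.0671), and its groups overlapped. Anxa1, Anxa5 and Vim were higher in miKO-tFCI than in WT-tFCI (by 2.09, 1.08 and 1.03). Of these, Vim had groups that overlapped (389 ± 236 CPM in miKO-tFCI against 187 ± 97 in WT-tFCI). Sap130, whose product is a ligand of Clec4e, was not called in any of the 4 comparisons. The median over the 5 was 1.21 in miKO-Sham and 1.03 in miKO-tFCI against WT. Of 53 other C-type lectin and lectin-like genes 28 were tested, and after tFCI 14 rose and 1 fell in WT and 17 rose and 1 fell in miKO. Between genotypes 4 were higher (Cd93, Clec11a, Clec1b, Olr1) and 2 lower (Cd302, Mrc2) in miKO-Sham, and 5 higher and 1 lower in miKO-tFCI. Their medians were 2.27 and 1.65 after tFCI in WT and miKO, and 0.16 and 0.96 between genotypes after sham surgery and tFCI.

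Markers of other cell types moved with some of these values. The summed level of 10 monocyte and macrophage markers was 16.3 to 97.1 CPM in WT-Sham and 76.3 to 132 in miKO-Sham. It was 412 to 718 in WT-tFCI and 571 to 1136 in miKO-tFCI. By medians this was the order of groups seen for Clec4e and Clec4d, but the genotypes overlapped after sham surgery and after tFCI. Replicate 1 was the highest of WT-Sham, WT-tFCI and miKO-tFCI. Fn1 was the largest of these markers in WT-tFCI, with a mean of 369 CPM against 206 in miKO-tFCI, and was not called between them. Chil3 was the largest in miKO-tFCI, with a mean of 285 CPM against 70 in WT-tFCI. Of these markers, 2 were called higher in miKO-Sham vs. WT-Sham (Cd44, Itga4), 4 in miKO-tFCI vs. WT-tFCI (with Ccr2, Chil3), 6 after tFCI in WT and 8 after tFCI in miKO, and none lower. Ccr2 was at 4.58 to 12.3 CPM in miKO-Sham and at 4.71 to 8.05 CPM in WT-Sham. After tFCI it was at 18.5 to 75.9 CPM in miKO and at 3.17 to 21.4 CPM in WT. The median log2 fold change of these 10 markers was 1.02 in miKO-Sham vs. WT-Sham and 1.36 in miKO-tFCI vs. WT-tFCI. Over all genes it was 0.04 in both comparisons. The 10 border-associated macrophage markers summed to 118 to 144, 116 to 397, 215 to 336 and 399 to 958 CPM in the same order of groups. Of these, 2 were called higher in miKO-Sham vs. WT-Sham (Folr2 by 2.65, Ms4a7 by 1.43), 4 in miKO-tFCI vs. WT-tFCI (Cd163, Folr2, F13a1, Ms4a7), 4 after tFCI in WT and 8 after tFCI in miKO, and 0 lower. The 10 dendritic cell markers summed to 40.3 to 59.9, 25 to 34.2, 29.7 to 139 and 59.7 to 377 CPM, with replicate 1 highest in both tFCI groups. Of the 9 tested, 1 was higher and 2 lower in miKO-Sham vs. WT-Sham, 1 higher (Ccr7) in miKO-tFCI vs. WT-tFCI, 3 higher and 1 lower after tFCI in WT, and 4 higher and 1 lower after tFCI in miKO. Of 12 neutrophil markers Ly6g stayed below 1 CPM in each library, S100a8 was at 264 to 333 CPM in miKO-tFCI against 54.9 to 64.8 CPM in WT-tFCI, and Csf3r was the main part of the sum in the WT-tFCI and miKO-Sham libraries. Of the 10 tested, 0 were called in miKO-Sham vs. WT-Sham and 6 were higher in miKO-tFCI vs. WT-tFCI (Cxcr2, Mmp8, Mpo, Retnlg, S100a8, S100a9), while 1, Csf3r, was lower after tFCI in WT, and after tFCI in miKO 4 were higher and 1, Csf3r again, was lower. The part of these cells in the levels of the members, Clec7a included, was not tested.

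Over the 12 libraries, which fall into 4 groups and share the batch, the gene with the most similar batch-adjusted log2 CPM was Npc2 for Clec7a (Pearson r = 0.985), Anxa5 for Clec4e (0.993), Cd44 for Clec4d (0.996), Ccl7 for Clec4n (0.962), Zfp266 for Clec5a (0.966), Abcb4 for Clec4a2 (0.993), Garnl3 for Clec4a3 (0.985), Gja5 for Clec4a1 (0.928) and Lars for Clec12a (0.925). Each r was the largest over 16442 genes compared and was not tested. Clec5a and Clec12a, with no called difference, had values above 0.9 as well. Among the members, Clec4e and Clec4d (0.981) and Clec4a2 and Clec4a3 (0.892) were most alike, and Clec7a and Clec4a2 ran most nearly opposite (−0.953). Of 20 tested genes within 250 kb of a member, 3 were called higher and 0 lower in miKO-Sham vs. WT-Sham (15.4% of all genes were called), Clec1b, Olr1 and C3ar1, the receptor of complement C3a next to the Clec4 cluster (log2 fold change 2.10). C3ar1 was also higher in miKO-tFCI than in WT-tFCI (1.17), as was Klrk1 (2.80), 2 of 20 where 8.79% of all genes were called. Both shares were near those of all genes.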

How the data were processed

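RNA of sorted microglia was measured in 12 libraries, and groups and batches were taken from the labels. The submitters' processing notes name FastQC 0.11.9, Trim Galore, HISAT2 2.2.1, SAMtools, HTSeq 1.99.2 and the builds mm10 and GRCm38.p6. The authors deposited counts per gene without normalization, and 30.7% to 38.5% of reads lay on genes. The labels name a CytoFLEX SRT and the methods a Cytek Aurora as sorter. At 7697860 to 9452220 counts on genes per library, genes with a few counts are imprecise. The counting intervals of the Clec4e ratios and the floors used for Clec4d cover counting error only. Intervals of the fold changes tested by edgeR rest on the SE of its fit, which includes the spread between libraries.

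Tests used edgeR 4.0.16 under R 4.3.3, with TMM, filterByExpr and a quasi-likelihood fit of all 12 libraries on group plus batch, adjusted by Benjamini-Hochberg over 16451 genes. GENCODE M21 (GRCm38) gave symbols and coordinates for 55141 of 55401 identifiers, and promoters came from RefSeq (GRCm38.p6). The steps were tested on simulated data. DESeq2 1.42.0, other filters and scalings, no batch term, batch 2 only, only the groups compared, a replicate block and leaving out each replicate were tried as alternatives. Lines for reads on no gene (45.3% to 52.5%) were left out of library sizes.

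The members and gene lists were chosen with earlier results of these data known. All members, the partner chains and effectors Fcer1g, Tyrobp, Hcst, Syk, Card9 and Ptpn6, Hdac3, list genes called in a comparison described, the nearest patterns and called neighbours within 250 kb were named. In miKO-tFCI vs. WT-tFCI the deviations from the group means of libraries with the same replicate number correlated by 0.67, 0.33 and 0.32, but number 1 is batch 1, and replicates 2 and 3 correlated as highly across numbers (0.39 and 0.33), so that the numbers separate the batches and are not shown to pair the libraries of batch 2. The p-values measure the spread between these libraries.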

Additional observations from a re-analysis of the deposited data

Results flagged for a closer look

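Clec7a and Clec4d had effects of tFCI that differed between genotypes by the interaction term of the fit. For Clec7a the interaction was −3.18 ± 0.41 on the log2 scale (edgeR adjusted p = 6.75e-04): tFCI went with a rise of 2.32 in WT and a fall of 0.86 in miKO. The miKO groups overlapped, and the call of this fall was lost without replicate 1 or 2 of either (edgeR adjusted p = 0.0640 to 0.114). For Clec4d it was −5.60 ± 1.27 (edgeR adjusted p = 0.0290), a fitted value that depends on the prior count because WT-Sham had no count, while the gene rose after tFCI in both genotypes. The Clec4d call was lost without any one of the WT-Sham libraries or WT-tFCI replicate 3 (edgeR adjusted p = 0.0539 to 0.0691).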

How the results depend on the processing

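Of 876 values under alternatives chosen at the start, 821 kept their direction and side of the threshold, 18 lost a call, 15 gained one and 22 changed sign, none of the last on a called value. With at least 10 counts in every library, which left 6 members to test, 3 members were called after tFCI in WT and 2 after tFCI in miKO. Of the 11607 genes then tested, 3701 and 3744 were called. The interaction had 1 member called without the batch term (303 of 16451 genes) and 1 in batch 2 only (513 of 16219 genes). Leaving out 1 replicate gave 1 to 3 members called in the interaction, 6 to 7 in miKO-Sham vs. WT-Sham and 3 to 6 in miKO-tFCI vs. miKO-Sham. It gave 6 in miKO-tFCI vs. WT-tFCI and 5 to 7 in WT-tFCI vs. WT-Sham. Over all genes, 16859 to 17283 were tested in these fits. Their calls in the same order were 281 to 883, 1954 to 2677, 4677 to 6266, 616 to 1667 and 4542 to 5593. The replicate block gave 5, 4, 7, 6 and 2 members called, as did the fit without it, and changed no call of a member. Of 16451 genes it called 5325, 5871, 2490, 1429 and 612. Without TMM the median of all genes in miKO-Sham vs. WT-Sham moved from 0.04 to −0.23, and calls over all genes from 1411 higher and 1119 lower to 834 and 2398; Clec4a1 was then not called there (edgeR adjusted p = 0.0542).

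Clec7a in miKO-tFCI vs. miKO-Sham was also not called in a fit of those groups only (edgeR adjusted p = 0.0597) or in batch 2 (0.198), nor the Clec4d interaction without the batch term (0.0678) or in batch 2 (0.0842). The Clec4a2 interaction was called by DESeq2 (adjusted p = 0.0116) and without TMM (edgeR adjusted p = 0.0453). Without miKO-Sham replicate 3, Clec12a was higher in miKO-tFCI than in miKO-Sham by 2.29 (edgeR adjusted p = 0.00107). The cause was not tested.

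Signs changed only for uncalled values, which were near 0 except for Clec12a without miKO-Sham replicate 3. Clec5a was at 0.034 (no batch term) and 0.24 (batch 2) in miKO-tFCI vs. WT-tFCI and at −0.016 (no filter) and −0.0080 (replicate block) in the interaction, and Clec12a at −0.11 (batch 2) in miKO-tFCI vs. WT-tFCI. Leaving out 1 replicate gave −0.22 to 0.17, −0.30 to 0.14 and −0.24 to 0.20 for Clec5a and −1.19 to 0.89, −0.040 to 0.43 and −0.74 to 1.34 for Clec12a in miKO-Sham vs. WT-Sham, in miKO-tFCI vs. WT-tFCI and in the interaction. It gave −0.32 to 0.087 for Clec4a1 in miKO-tFCI vs. miKO-Sham. Without miKO-Sham replicate 3, Clec12a was at −1.19 in miKO-Sham vs. WT-Sham (edgeR adjusted p = 0.0792) and at 1.34 in the interaction (edgeR adjusted p = 0.193).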
